A study of Mus musculus with 24 samples.

Results

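The genes described here are the 34 mouse genes for Wnt ligands and their receptors, namely 19 Wnt genes, 10 Frizzled genes and the 5 co-receptor genes Ror1, Ror2, Ryk, Lrp5 and Lrp6. They were chosen by gene family, with no coverage value in the rule, and all 34 were found among the 22208 protein-coding symbols of a mouse annotation on the mm9 genome. For each gene, the percent of its length covered by called regions was measured in each of 12 chromatin immunoprecipitation libraries. The coverage of Ror2, a receptor tyrosine kinase that binds Wnt5a, was set against that of the rest. Both the 34 genes and Ror2, as the gene set against the rest, were chosen with earlier results of these data known.

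Libraries came from immortalized dermal fibroblasts of the mouse that either lacked LAP2alpha, the nucleoplasmic product of the Tmpo gene (KO, genotype Lap2alpha -/-), or carried it (WT, genotype Lap2alpha +/+), with no other treatment. Fixed chromatin was sheared by 30 or 12 cycles of sonication. Lamin A/C was precipitated with antibodies N18 and 3A6 from KO and WT cells, whereas LAP2alpha and lamin B1 were precipitated from WT cells only. Each combination of antibody, genotype and sonication is 1 library, 12 of the 24 samples of the series, and each genotype is an immortalized culture. Without replicates no spread between samples can be given, so differences are described by size and no p-value was computed. The study asked which chromatin lamin A/C contacts and how this depends on LAP2alpha. The comparisons of KO with WT address the second question, and those of 30 with 12 cycles address how shearing changes the chromatin recovered.

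Wnt proteins are secreted lipid-modified signals. They bind Frizzled receptors together with Lrp5 or Lrp6 to stabilize beta-catenin, or with Ror and Ryk receptors to act on cell polarity and movement without it. In skin, Wnt signals between epidermis and dermis direct the formation of hair follicles and the fate of dermal fibroblasts. Lamins form a meshwork under the nuclear envelope, where lamin B1 contacts gene-poor chromatin, and a mobile pool of lamin A/C in the nuclear interior binds LAP2alpha.

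The libraries held 3989494 to 13601739 reads within islands, the regions called by SICER. The broader domains called by EDD (Enriched Domain Detector) covered 9.04% to 36.2% of the genome. For lamin A/C, KO and WT libraries sheared alike were sequenced in 1 lane. Libraries of 30 and 12 cycles were not, except those of lamin B1, so that lane and sonication cannot be told apart for LAP2alpha and lamin A/C. The loss of LAP2alpha in KO cells cannot be checked from lists of called regions, nor can the identity of the cells be checked by marker genes.

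The start sites of 4 genes that differed in coverage are shown by the 300 bases from 250 before to 49 after the annotated start, read on the coding strand of mm9. Capitals mark CpG dinucleotides, searched as the letters CG, which read the same on both strands. Ror2 (chr13:53381444-53381743, minus strand) and Lrp5 (chr19:3686515-3686814, minus strand) had the same pattern of domains, Fzd10 (chr5:129106469-129106768, plus strand) lay in domains of nearly every library and Wnt5a (chr14:29317686-29317985, plus strand) in none.
Ror2: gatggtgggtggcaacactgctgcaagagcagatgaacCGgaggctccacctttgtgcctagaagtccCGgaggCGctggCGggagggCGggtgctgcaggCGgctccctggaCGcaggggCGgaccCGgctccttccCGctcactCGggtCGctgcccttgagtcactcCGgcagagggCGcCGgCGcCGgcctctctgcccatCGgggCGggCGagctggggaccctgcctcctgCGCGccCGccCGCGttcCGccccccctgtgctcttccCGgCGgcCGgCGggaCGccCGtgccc
Lrp5: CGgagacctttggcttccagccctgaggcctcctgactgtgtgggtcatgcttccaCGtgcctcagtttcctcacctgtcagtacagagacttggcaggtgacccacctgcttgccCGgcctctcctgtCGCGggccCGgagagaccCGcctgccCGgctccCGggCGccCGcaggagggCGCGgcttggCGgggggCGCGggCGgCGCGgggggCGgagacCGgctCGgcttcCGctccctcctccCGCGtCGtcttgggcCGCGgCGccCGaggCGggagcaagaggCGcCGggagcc
Fzd10: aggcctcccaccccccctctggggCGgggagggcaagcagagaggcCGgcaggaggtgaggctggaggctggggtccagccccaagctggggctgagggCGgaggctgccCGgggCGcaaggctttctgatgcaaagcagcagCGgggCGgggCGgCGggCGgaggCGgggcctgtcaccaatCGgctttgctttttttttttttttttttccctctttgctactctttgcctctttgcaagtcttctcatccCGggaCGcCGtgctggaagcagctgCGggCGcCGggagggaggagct
Wnt5a: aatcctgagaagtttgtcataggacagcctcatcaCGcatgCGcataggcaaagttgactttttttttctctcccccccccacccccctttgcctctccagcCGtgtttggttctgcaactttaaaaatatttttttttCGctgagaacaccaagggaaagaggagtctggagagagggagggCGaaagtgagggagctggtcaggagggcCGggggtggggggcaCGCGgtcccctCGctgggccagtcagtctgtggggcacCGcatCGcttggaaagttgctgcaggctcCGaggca
The Ror2 window holds 32 CpG and that of Lrp5 33, counts reached by 11.1% and 10.0% of the 22208 promoters of the same length. Fzd10 holds 18, a count reached by 36.9%, and Wnt5a 12, reached by 50%. The Ror2 and Lrp5 windows lay whole inside EDD domains of 3 libraries each, the Fzd10 window of 11 and the Wnt5a window of 0. Islands covered the Ror2 window whole in 3 libraries and the Lrp5 window in 4, but neither the Fzd10 nor the Wnt5a window in any.

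Across 34 genes and 12 libraries, all 408 values of EDD coverage were either 100% (79 values) or 0% (329 values). A gene with at least 50% of its length covered was called inside. In LAP2alpha libraries, 12 of 34 genes were inside at 30 cycles (32.3% of all genes) and 17 at 12 cycles (35.9% of all genes). With lamin A/C N18, 10 genes were inside in KO and 1 in WT at 30 cycles (28.5% and 5.89% of all genes), and 6 in KO and 15 in WT at 12 cycles (23.1% and 27.4%). With lamin A/C 3A6, 1 gene was inside in KO and 0 in WT at 30 cycles (12.6% and 9.4%), and 1 in KO and 13 in WT at 12 cycles (10.7% and 21.1%). Lamin B1 domains held 2 genes at 30 cycles and 1 at 12 cycles (16.8% and 7.78% of all genes).

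**Figure D1:**
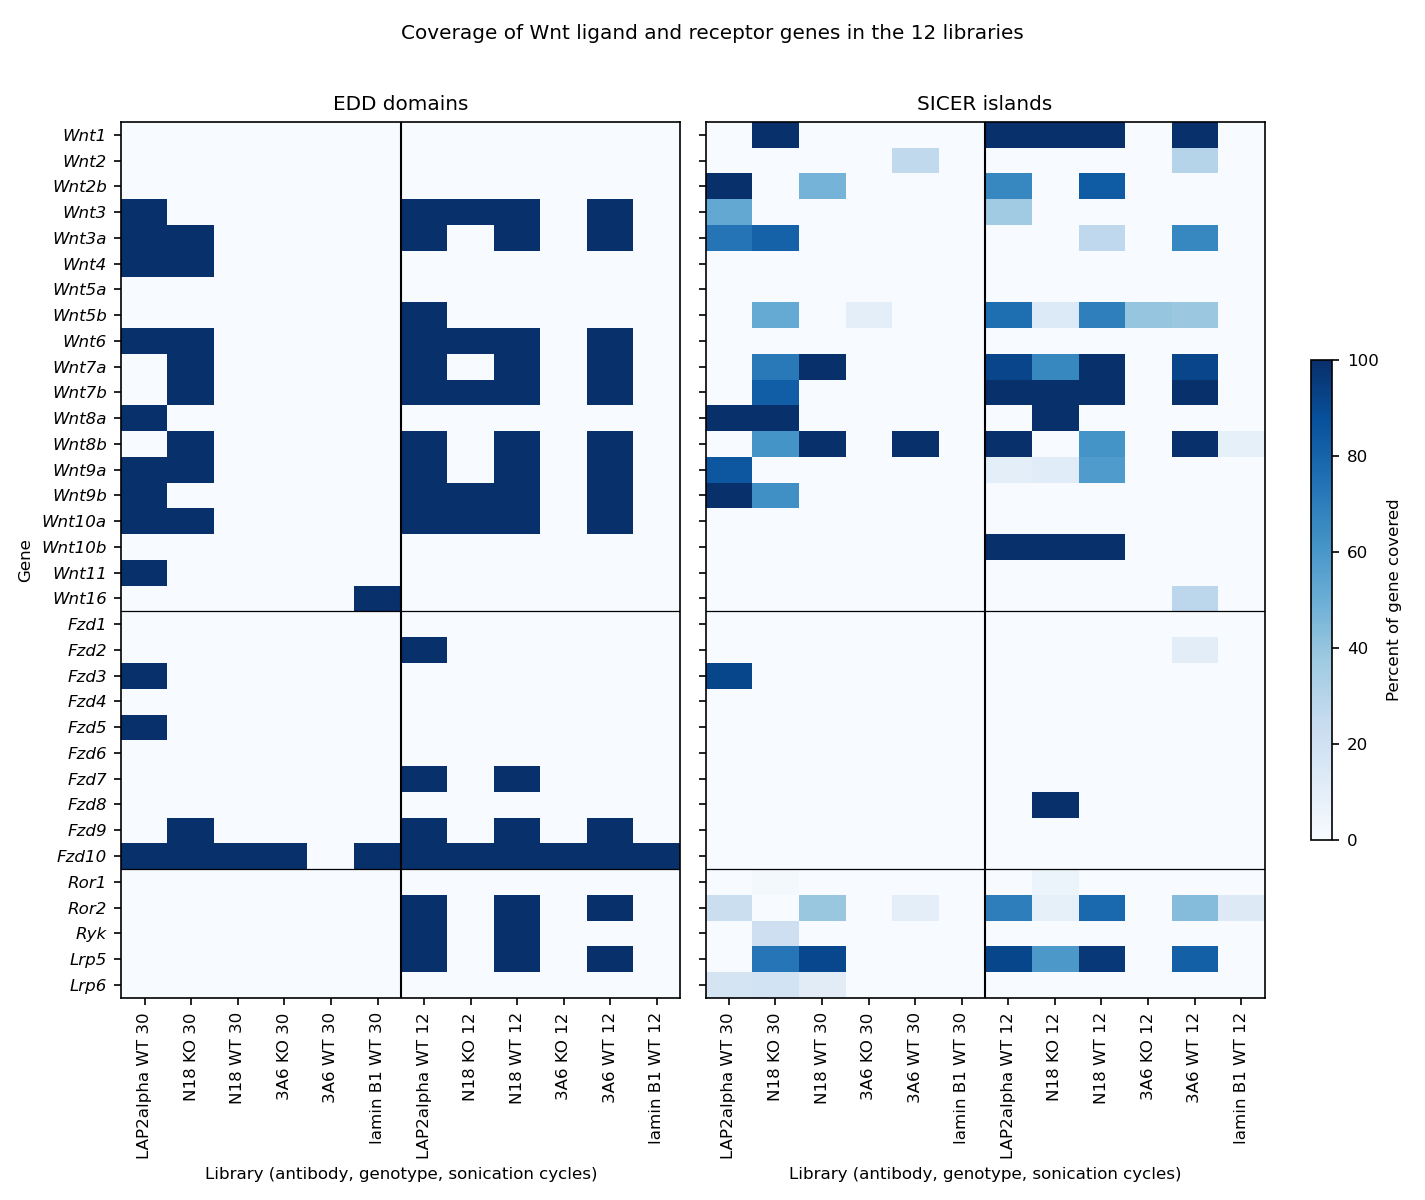
Percent of each gene (rows, grouped as ligands, Frizzled genes and co-receptors) covered by EDD domains (left) and SICER islands (right) in each library (columns, 30 cycles left of 12 cycles). Domains cover a gene fully or not at all, 13 to 17 genes are filled in the 3 WT lamin A/C and LAP2alpha columns at 12 cycles, and Fzd10 is filled in 11 of 12 columns.

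Genes that lie side by side share their domains and are not independent. The 34 genes fall into 30 loci when neighbours within 100 kb are joined. The pairs are Wnt6 and Wnt10a on chromosome 1 (6.20 kb apart), Wnt3a and Wnt9a on chromosome 11 (16.2 kb), Wnt9b and Wnt3 on chromosome 11 (24.3 kb), and Wnt10b and Wnt1 on chromosome 15 (11.7 kb).

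At 12 cycles, lamin A/C coverage was lower in KO than in WT for many Wnt genes and higher for none. With N18, 9 genes at 8 loci were lower by at least 50 percentage points, against 11.9% of all genes, and 0 were higher, against 7.62%. With 3A6, 12 genes at 9 loci were lower, against 15.4% of all genes, and 0 were higher, against 4.98%. The 9 genes lower with N18 were 60% of the 15 inside WT domains, where 43.5% of all genes inside WT domains were lower. The 12 genes lower with 3A6 were 92.3% of the 13 inside WT domains, against 72.9% of all genes. Both lists held Wnt3a, Wnt7a, Wnt8b, Wnt9a, Fzd9, Ror2 and Lrp5, which are 7 genes at 6 loci, 77.8% of the N18 list and 58.3% of the 3A6 list. This count is given as a description (5.66% of all genes were lower with both and 2.21% higher with both), since the labels list a single input per genotype and sonication, which both antibodies shared. These comparisons used 5520180 island reads in KO and 5091621 in WT with N18, and 3989494 in KO and 4884992 in WT with 3A6.

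**Figure D2:**
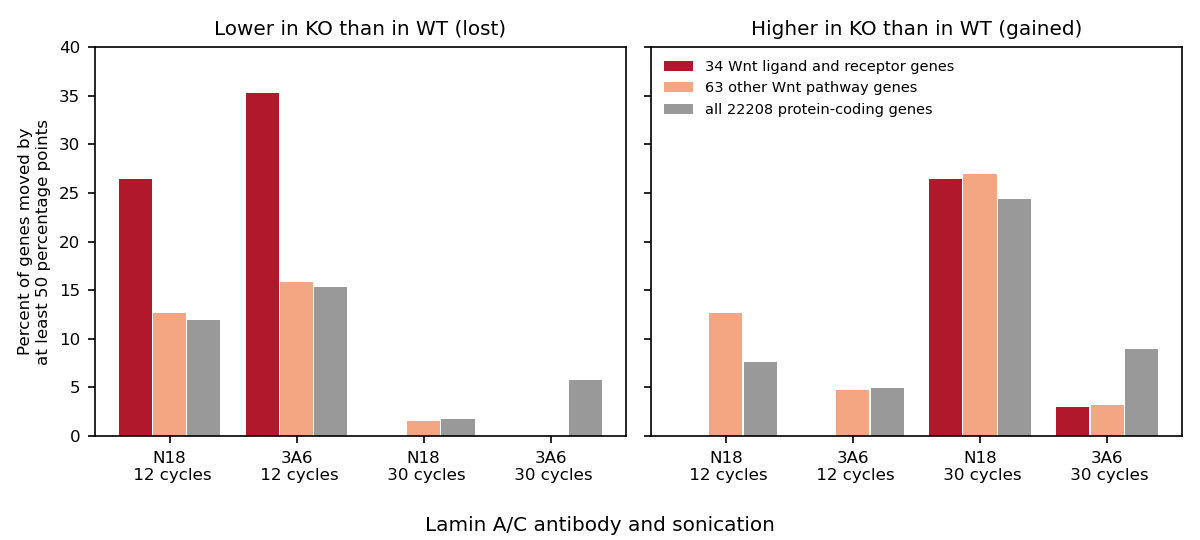
Percent of the Wnt ligand and receptor genes, of 63 other Wnt pathway genes and of all 22208 genes whose EDD coverage was lower (left) or higher (right) in KO than in WT by at least 50 percentage points, for each antibody and sonication, 1 library per genotype. At 12 cycles the ligand and receptor genes stand at 26.5% and 35.3% on the left and at 0% on the right, and at 30 cycles they stand at 26.5% on the right with N18.

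Among the ligands, Wnt3a and Wnt9a, which are transcribed away from each other, lay outside domains in KO and inside them in WT. Both were covered 0% in KO and 100% in WT with N18 and with 3A6. The WT domain of N18 (chr11:58795001-61237000, 2.44 Mb) was covered to 7.21% by KO domains, of which the nearest lay 133 kb from the Wnt3a start site. The WT domain of 3A6 (chr11:57937001-60093000, 2.16 Mb) was covered to 29.1% in KO. Wnt3a is a ligand of the beta-catenin branch.

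Wnt7a is an epidermal ligand and Wnt8b a ligand known from the forebrain. At 12 cycles they also had 0% in KO and 100% in WT with both antibodies. The N18 domain around Wnt7a (chr6:90233001-92037000) was covered 0% by KO domains, and the nearest KO domain lay 8806 kb away. The domain around Wnt8b (chr19:44484001-45441000, 0.957 Mb) had the same borders with both antibodies in WT and was covered 0% in KO with each. Islands followed at Wnt8b, with 0% of the gene in KO and 61.4% in WT with N18, and 0% in KO and 100% in WT with 3A6. At Wnt7a islands covered 66.2% of the gene in KO and 100% in WT with N18, whereas with 3A6 they covered 0% in KO and 91.6% in WT.

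For 5 further ligands the antibodies parted at 12 cycles. Wnt3, Wnt6, Wnt7b, Wnt9b and Wnt10a were 100% covered in both genotypes with N18, and 0% in KO and 100% in WT with 3A6. Wnt3 and Wnt9b lay in an N18 domain of 0.726 Mb in KO and 1.20 Mb in WT. Wnt7b, on chromosome 15, lay in a single island of 467 kb with 12616 reads in KO and 222 kb with 5127 reads in WT with N18. With 3A6 the Wnt7b gene had no island in KO and one of 218 kb in WT. Of all genes of chromosome 15 inside WT domains, 0.625% were lower in KO with N18 and 69.9% with 3A6.

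Frizzled genes encode the membrane receptors that bind Wnt proteins. Among them, Fzd9 was 0% covered in KO and 100% in WT with both antibodies at 12 cycles. It sat within a domain of 32.7 Mb in WT with N18 (chr5:110506001-143209000). KO domains covered 81.4% of that stretch, with the nearest one ending 350.1 kb from Fzd9. With 3A6 KO domains covered 36.7% of the corresponding WT domain of 31.6 Mb. Fzd7 at 12 cycles was 0% covered in KO and 100% in WT with N18 and 0% in both with 3A6.

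Fzd10, also within the large domain of distal chromosome 5, was 100% covered in KO and WT with both antibodies at 12 cycles. The domain around it was 22.6 Mb in KO and 32.7 Mb in WT with N18, and 3.86 Mb in KO and 31.6 Mb in WT with 3A6. It was the one gene of the 34 inside lamin B1 domains at both sonications, in domains of 3.38 Mb at 30 cycles and 2.45 Mb at 12 cycles. It lay outside in 1 of 12 libraries, 3A6 WT at 30 cycles, where the nearest domain lay 220 kb away. No library had an island over it.

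Among the co-receptors, Lrp5 pairs with Frizzled receptors in the beta-catenin branch. At 12 cycles it was 0% covered in KO and 100% in WT with both antibodies. Its N18 domain in WT (chr19:3267001-6688000, 3.42 Mb) was covered to 15.8% in KO. Ryk, an atypical receptor kinase, was 0% covered in KO and 100% in WT with N18 and 0% in both with 3A6 at 12 cycles. Ror1, the paralog of Ror2, and Lrp6, the paralog of Lrp5, were 0% covered by domains in all 12 libraries. The paralog pairs therefore differed, Ror2 and Lrp5 each being inside 3 libraries and their partners inside 0.

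Ror2 spans 177 kb of chromosome 13 (chr13:53204681-53381493, minus strand). It was 100% covered in the LAP2alpha, N18 WT and 3A6 WT libraries at 12 cycles. In the 12-cycle N18 KO, 3A6 KO and lamin B1 libraries, and in all 6 libraries at 30 cycles, it was 0% covered. All genes inside exactly these 3 libraries numbered 128, which is 0.576% of all genes, and 15 of them are on chromosome 13. By the mean absolute difference in EDD coverage over the 12 libraries, Lrp5 was closest to Ror2 of the other members, with a difference of 0 points. Next came Fzd7, Fzd9, Ryk, Wnt7a and Wnt8b, tied at 8.33 points, each departing from Ror2 in 1 library. Lrp5, like Ror2, was 100% covered in 3 libraries and 0% in the other 9. Wnt7a, Wnt8b and Fzd9 were 100% covered in those 3 and in N18 KO at 30 cycles, and 0% in the other 8. Wnt3a and Wnt9a were 100% covered in these 4 and in LAP2alpha at 30 cycles, and 0% in the other 7. Fzd7 and Ryk were 100% covered in the 12-cycle LAP2alpha and N18 WT libraries, and 0% in the other 10. The farthest was Fzd10 at 66.7 points. In islands Lrp5 and Ror2 differed. With N18 at 30 cycles islands covered 72.9% of Lrp5 in KO and 91.0% in WT, and 0% and 38.7% of Ror2. In N18 KO at 12 cycles they covered 59.7% of Lrp5 and 8.48% of Ror2. In 3A6 KO both genes had 0% at both sonications.

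The domain around Ror2 was several megabases long in each of the 3 libraries. In N18 WT it ran over 9.03 Mb (chr13:51007001-60038000), of which KO domains covered 17.5%. In 3A6 WT it ran over 7.38 Mb (chr13:52723001-60104000), of which KO domains covered 25.9%. LAP2alpha domains at 12 cycles covered 86.8% of the N18 WT domain and 97.5% of the 3A6 WT domain. The Ror2 start site was 3907 kb from the nearest domain in N18 KO and 2660 kb in 3A6 KO. No domain was called within 2000 kb on either side of the gene in these KO libraries, while in N18 WT that window was 100% covered. At 30 cycles the surroundings differed the other way with N18, where domains covered 46.5% of the same window in KO and 0% in WT, and the nearest KO domain lay 233 kb from the start site.

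Islands gave a graded picture of Ror2. At 12 cycles they covered 8.48% of the gene in KO and 78.5% in WT with N18, and 0% in KO and 43.7% in WT with 3A6. The LAP2alpha library had 69.8% and that of lamin B1 13.01%. The N18 KO library held a single island of 15 kb and 289 reads over the gene, whereas N18 WT held 6 islands, of 265 to 788 reads. At 30 cycles, where no library had a domain over Ror2, islands covered 0% of the gene in KO and 38.7% in WT with N18, and 0% in KO and 9.61% in WT with 3A6. LAP2alpha at 30 cycles had 22.6% and lamin B1 0%. Within islands that touch Ror2, read density was 16.6 to 22.5 reads per kb in the LAP2alpha and lamin A/C libraries at 12 cycles, and the N18 KO island had 19.3.

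At 12 cycles chromosome 13 moved with Ror2. EDD domains covered 1.32% of it in KO and 16.4% in WT with N18, and 4.05% in KO and 13.5% in WT with 3A6. Islands covered 0.387% in KO and 16.3% in WT with N18, and 0.25% in KO and 15.7% in WT with 3A6. Of the 171 genes of this chromosome inside N18 WT domains, 165 were lower in KO (96.5%), and of 135 inside 3A6 WT domains 124 were lower (91.9%). At 30 cycles islands covered 0.0449% of the chromosome in KO and 15.7% in WT with N18, and 0% in KO and 5.46% in WT with 3A6. Domains at 30 cycles differed in the other direction, covering 11.8% in KO and 9.23% in WT with N18, and 1.23% in KO and 0.53% in WT with 3A6. At 12 cycles Ror2 thus moved with most genes of its chromosome that lay inside WT domains. For Lrp5 and Wnt8b on chromosome 19 the shares were 85.4% with N18 and 95.2% with 3A6, and for Wnt7a on chromosome 6 they were 89.7% and 87.2%. They were lower with N18 for Wnt3a and Wnt9a on chromosome 11 (67% with N18 and 85.3% with 3A6) and for Fzd9 on chromosome 5 (32.7% with N18 and 81.2% with 3A6). The part of whole-chromosome differences in these results was not tested.

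**Figure D3:**
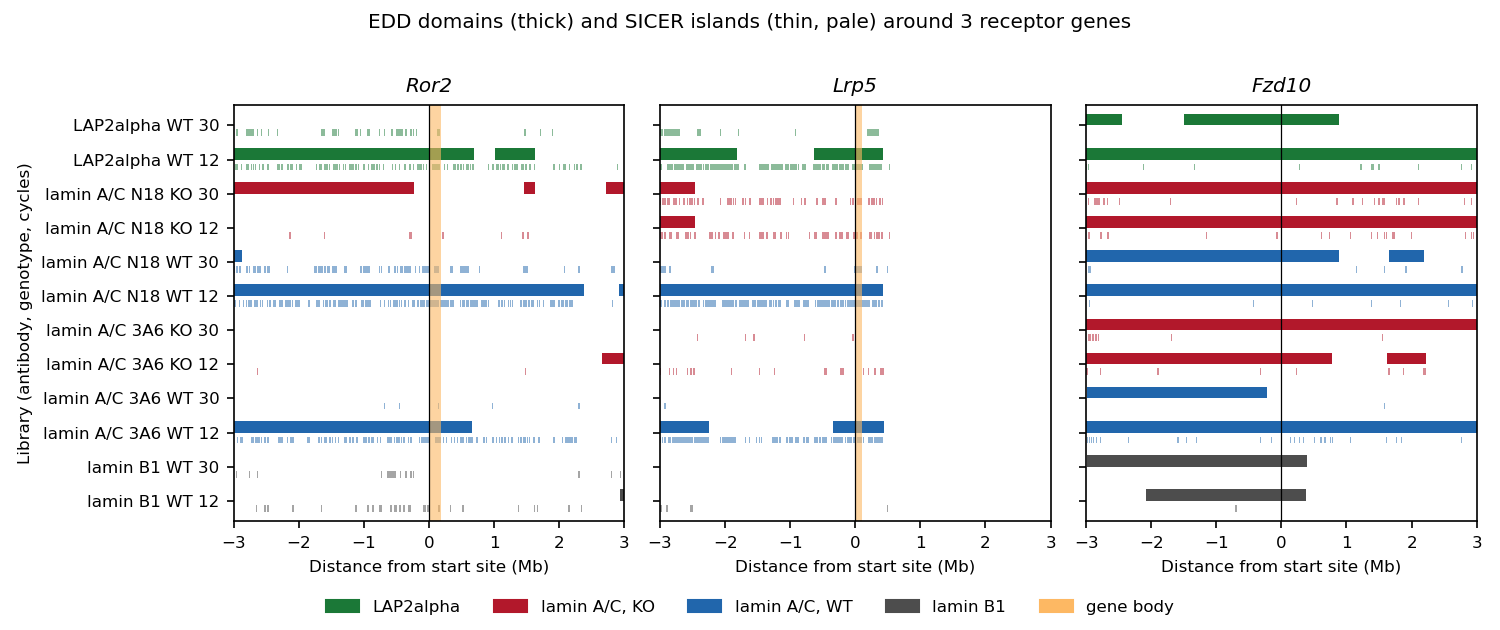
EDD domains (thick bars) and SICER islands (thin pale bars) within 3000 kb of the start sites of Ror2, Lrp5 and Fzd10, by distance in the direction of transcription, 1 row per library with KO above WT and 30 above 12 cycles. Ror2 and Lrp5 are crossed by thick bars in the LAP2alpha, N18 WT and 3A6 WT rows at 12 cycles, and Fzd10 in 11 of 12 rows. Lrp5 lies near the beginning of chromosome 19, and most of the right of its panel holds no called region.

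At 30 cycles the difference between genotypes ran the other way with N18. Coverage was higher in KO than in WT for 9 genes at 7 loci, against 24.4% of all genes, and lower for 0, against 1.75%. The share of Wnt genes, 26.5%, was near that of all genes. The 9 were Wnt3a, Wnt4, Wnt6, Wnt7a, Wnt7b, Wnt8b, Wnt9a, Wnt10a and Fzd9, each at 100% in KO and 0% in WT. Wnt4, a ligand of gonad and kidney development, lay in a KO domain of 20.7 Mb on chromosome 4. Over the domains of these 9 genes, WT coverage had a median of 37.1% and ranged from 0% at Wnt8b to 41.3% at Wnt3a and Wnt9a. Wnt3a and Wnt9a share a domain, as do Wnt6 and Wnt10a, and each gene was counted. Island coverage of these domains was higher in KO for 6 of the 9 genes. It was lower for 1 (Wnt8b, 57.5% in KO and 88.4% in WT). N18 domains covered 17.9% of the genome in KO and 9.04% in WT, and these libraries held 13601739 island reads in KO and 9600190 in WT. Island reads are counted after calling and are not a measure of sequencing depth. The part of this wider calling in the gains was not tested.

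With 3A6 at 30 cycles, 1 gene was higher in KO (Fzd10, 100% in KO and 0% in WT), against 8.94% of all genes, and 0 were lower, against 5.74%. With both antibodies, 0 of the 34 genes were higher, against 4.24% of all genes, and 0 were lower, against 0.324%. Genes lower in KO at 12 cycles and higher at 30 cycles with N18 were 5 of 34 (Wnt3a, Wnt7a, Wnt8b, Wnt9a and Fzd9), against 6.39% of all genes. Ror2, Ryk and Lrp5 were 0% covered by domains in KO and WT with both antibodies, so for them domains show no difference between genotypes at this sonication.

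Most genes inside WT lamin A/C domains at 12 cycles were outside at 30 cycles. These comparisons share the WT libraries with those between genotypes. In N18 WT, 14 genes were lower at 30 than at 12 cycles, against 24.2% of all genes, and in 3A6 WT 13 were lower, against 20.1%. In both, 0 were higher (2.7% and 8.38% of all genes). These 14 were 93.3% and these 13 100% of the genes inside at 12 cycles, beside 88.4% and 95.2% of all genes. Ror2 and Lrp5 were among them with both antibodies.

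In N18 KO, 2 genes were lower at 30 than at 12 cycles (Wnt3 and Wnt9b), against 6.83% of all genes, and 6 were higher (Wnt3a, Wnt4, Wnt7a, Wnt8b, Wnt9a and Fzd9), against 12.2%. In 3A6 KO 0 genes were lower and 0 higher, against 5.45% lower and 7.33% higher of all genes. Lamin B1 had 1 gene higher at 30 cycles, against 9.57%, and 0 lower, against 0.581%. The gene was Wnt16, a ligand known in bone and skin, which at 30 cycles lay in a lamin B1 domain of 9.98 Mb.

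LAP2alpha domains exchanged members between sonications. At 30 cycles 10 genes were lower than at 12 cycles (Wnt5b, Wnt7a, Wnt7b, Wnt8b, Fzd2, Fzd7, Fzd9, Ror2, Ryk and Lrp5), against 15.7% of all genes. In the other direction 5 were higher (Wnt4, Wnt8a, Wnt11, Fzd3 and Fzd5), against 12.1%. Inside at both sonications were Wnt3, Wnt3a, Wnt6, Wnt9a, Wnt9b, Wnt10a and Fzd10. By role, 0 of 5 co-receptor genes were inside at 30 cycles and 3 at 12 cycles, 3 of 10 Frizzled genes at 30 cycles and 4 at 12 cycles, and 9 of 19 ligands at 30 cycles and 10 at 12 cycles, beside 32.3% and 35.9% of all genes. Differences between roles were not tested. Fzd2 shared its 12-cycle domain of 4.4 Mb on chromosome 11 with Wnt3 and Wnt9b, and Wnt5b, a ligand close to Wnt5a in sequence, lay in one of 1.00 Mb. The domains found at 30 cycles were 32.6 Mb around Wnt4, 12.3 Mb around Fzd3, a receptor of the polarity branch, 4.58 Mb around Wnt8a, 4.53 Mb around Fzd5 and 3.47 Mb around Wnt11. On chromosome 13 no LAP2alpha domain was called at 30 cycles, and at 12 cycles domains covered 11.9% of it.

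The 2 callers agreed on part of the genes only. Of 79 gene and library pairs inside EDD domains, 28 were also inside islands and 47 had no island at all, and 24 pairs were inside islands with no domain. Islands were called over 22 genes in at least 1 library, and 12 genes had none in any. These 12 included 4 on chromosome 1 (Wnt6, Wnt10a, Fzd5 and Fzd7), where islands covered between 0.0827% and 0.211% of the chromosome in every library. Wnt1 and Wnt10b, which have the reverse pattern, lay in one island of 766 kb in KO and 245 kb in WT with N18 at 12 cycles, and had no domain in any library. Fzd8 and Wnt8a on chromosome 18 were covered 100% by islands in KO and 0% in WT with N18 at 12 cycles. Islands covered 39.4% of chromosome 18 in KO and 2.26% in WT in the same libraries, and with 3A6, where they covered 32.4% in KO and 2.33% in WT, both genes had none.

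Inside islands of LAP2alpha were 7 genes at 30 cycles and 9 at 12 cycles (11.5% and 16.9% of all genes). With N18 they numbered 9 in KO and 3 in WT at 30 cycles (14.8% and 8.69% of all genes), and 7 in KO and 10 in WT at 12 cycles (15.8% and 15.9%). With 3A6 they numbered 0 in KO and 1 in WT at 30 cycles (4.73% and 4.44%), and 0 in KO and 6 in WT at 12 cycles (6.97% and 12.7%). Lamin B1 islands held 0 genes at 30 and 0 at 12 cycles (5.21% and 5.03% of all genes).

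Counted on islands, KO coverage at 12 cycles was lower by at least 50 points for 4 genes with N18 (Wnt2b, Wnt5b, Wnt8b and Ror2), against 7.19% of all genes, and higher for 2 (Wnt8a and Fzd8), against 7.05%. With 3A6 it was lower for 6 (Wnt1, Wnt3a, Wnt7a, Wnt7b, Wnt8b and Lrp5), against 8.92%, and higher for 0, against 3.33%. At 30 cycles it was higher for 6 with N18 (Wnt1, Wnt3a, Wnt5b, Wnt7b, Wnt8a and Wnt9b), against 10.2%, and lower for 0, against 4.1%. With 3A6 it was lower for 1 (Wnt8b), against 3.39%, and higher for 0, against 3.76%. At 12 cycles Wnt8b was the one gene lower in islands and in domains with both antibodies. Over the WT domains around the genes lower in KO, island coverage was lower in KO for 5 of 9 genes with N18 and for 10 of 12 with 3A6. Neighbouring genes that share a domain were each counted. At Lrp5 with N18, where no domain was called in KO, islands covered 59.7% of the gene in KO and 96.5% in WT.

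Outside the domains of every library were 11 of 34 genes (Wnt1, Wnt2, Wnt2b, Wnt5a, Wnt10b, Fzd1, Fzd4, Fzd6, Fzd8, Ror1 and Lrp6), against 32.9% of all genes. Wnt5a, the ligand of Ror2, is on chromosome 14 with its start site 723 kb from the nearest domain of any library, and it had no island either. The nearest domain was 135 kb away at Fzd6, 136 kb at Wnt2 and 2733 kb at Fzd8, the closest pair and the farthest of the 11. These genes had a median of 8 gene starts in the 1 Mb around their own start, itself included, beside 16 for all genes. The genes of the 34 inside LAP2alpha domains at 12 cycles had a median of 15, beside 23 for all genes inside those domains.

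Base composition differed between the genes inside and outside LAP2alpha domains at 12 cycles. In the 1 Mb around the start site, the 17 genes inside LAP2alpha domains had a median G+C of 47.0% (range 42.5% to 48.5%) and the 17 outside 42.7% (40.1% to 50.4%). For all genes the medians were 47.3% inside and 42.3% outside, a similar gap. The 7 genes lower in KO with both antibodies had a median of 47.9% (46.2% to 48.5%). Ror2 had 46.7% and 6 gene starts, the fewest of the 7, whose median was 25. Promoters rich in CpG (at least 50% G+C and an observed over expected CpG ratio of at least 0.6) belonged to 70.6% of the 34 genes and to 42.1% of all genes.

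**Figure D4:**
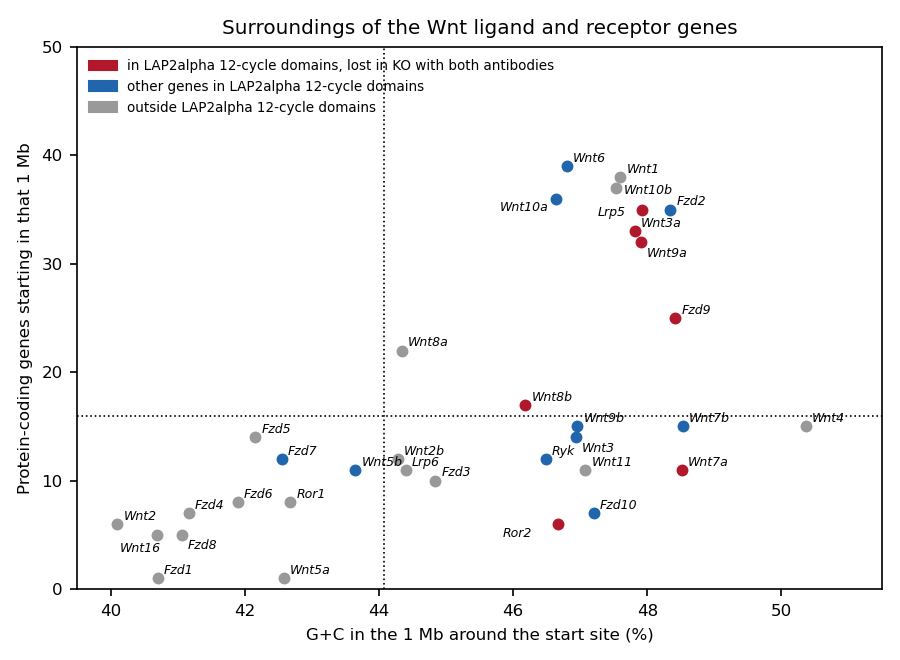
G+C content and number of gene starts in the 1 Mb around each start site, 1 point per gene, with the medians of all genes as dotted lines (44.1% and 16). The 7 genes lower in KO with both antibodies (red) lie between 46.2% and 48.5% G+C, and Ror2 is the lowest of them in gene number with 6.

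The other components of the pathway, 63 genes for antagonists, agonists, cytoplasmic and nuclear mediators and the polarity branch, were measured in the same way. At 12 cycles with N18, 8 of 63 were lower in KO (12.7%, against 11.9% of all genes) and 8 higher (12.7%, against 7.62%). With 3A6 10 were lower (15.9%, against 15.4%) and 3 higher (4.76%, against 4.98%), so that the shares lower in KO were near those of all genes. Lower with both antibodies were 3 of 63, a share no higher than the 5.66% of all genes: Ctnnb1, which encodes beta-catenin itself, and Axin1 and Apc2, which belong to the complex that degrades it. Each had 0% in KO and 100% in WT at 12 cycles. At 30 cycles each had 100% in KO and 0% in WT with N18, and 0% in both with 3A6. Higher with both at 12 cycles were 2 of 63, against 2.21% of all genes, each at 100% in KO and 0% in WT. They were Sfrp1, a secreted antagonist of Wnt proteins, and Dvl3, a Dishevelled protein that relays the signal from Frizzled. Inside LAP2alpha domains were 19 of 63 at 30 cycles (32.3% of all genes) and 27 at 12 cycles (35.9% of all genes). At 30 cycles with N18, 17 were higher in KO (26.98%, against 24.4% of all genes) and 1 lower (1.59%, against 1.75%). With 3A6 2 were higher (3.17%, against 8.94%) and 0 lower, against 5.74%. Higher with both at 30 cycles was 1 of 63, against 4.24% of all genes. This was Rspo1, an R-spondin that enhances Wnt signalling, at 100% in KO and 0% in WT. At 12 cycles Rspo1 was 0% covered in KO and 100% in WT with 3A6, and 100% in both with N18.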

How the data were processed

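Called regions of 12 chromatin immunoprecipitation libraries were analysed, and 4 inputs and 8 histone-mark samples were not analysed here. As the submitters' processing notes name them, the authors used cutadapt, Bowtie2 2.1.0 on mm9, Picard and SICER 1.1, and per the study's methods duplicates were removed and ChIP reads were reduced to the number of their input before regions were called, which limits the depth of each library. The deposited island lists (windows of 1000 bp, gaps of 3000 bp, false discovery rate 0.01) hold counts of ChIP reads per island, not scaled by length, input or depth. The domain lists deposited (bins of 11 kb, gap penalty 5, false discovery rate 0.1) hold a score, the EDD score of each domain. Both lists depend on depth and on the input, which was not used here, so a region that was not called is not shown to be free of signal.

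The 34 genes and the 63 other pathway genes were placed with GENCODE vM1 (NCBIM37, the mm9 assembly), with 1 record per symbol on 20 chromosomes, and positions count from 1. The percent of each gene covered was computed with Python 3.11.15 and numpy 2.4.6, tested on simulated data. A gene was inside a set at 50% of its length, and lower or higher at a difference of 50 percentage points. These thresholds were applied to all 22208 genes as background. Groups hold 1 library each, so no statistical test was made. Values in all 12 libraries were given for Ror2, for genes lower or higher with both antibodies at one sonication, for the genes nearest to Ror2 and for those inside domains of at least 10 libraries, and other pathway genes were named if lower or higher with both antibodies. The members, the lists and Ror2 as the gene set against the rest were chosen with earlier results of these data known. Alternatives were SICER islands, domains above the median score, 1 bp of overlap or, for Ror2, 100 kb on either side, and the transcription start site. Columns of promoter sequence were read from the mm9 genome.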

Additional observations from a re-analysis of the deposited data

Results flagged for a closer look

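Wnt3a, Wnt7a, Wnt8b, Wnt9a and Fzd9 stood out because their difference between genotypes with lamin A/C N18 took opposite signs at the 2 sonications. Each of these 5 genes had EDD coverage that differed by -100 percentage points (KO minus WT) at 12 cycles and by 100 points at 30 cycles. With 1 library per group, whether these differences themselves differ was not tested. Of all 22208 genes, 6.39% showed the same turn, and the 5 genes lie at 4 loci, since Wnt3a and Wnt9a are neighbours. Ror2 and Lrp5, lower at 12 cycles, did not turn: both were 0% covered in KO and in WT at 30 cycles. With 3A6 no gene of the 34 turned. These turns were in domains. Islands with N18 at 30 cycles went the same way at Wnt3a (80.7% of the gene in KO and 0% in WT). They went the other way at Wnt7a (71.8% in KO and 100% in WT) and Wnt8b (61.4% in KO and 100% in WT). Wnt9a and Fzd9 had no island in either of these libraries.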

How the results depend on the processing

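No paired analysis was possible because each group holds 1 library and the labels give no replicate numbers. Taking the transcription start site, at least 1 bp of overlap or, for Ror2, 100 kb on either side left all 36 results on their side of the threshold or, for counts, within 1.5 times. Since every EDD value was 0% or 100%, the start site and 1 bp rules could only return the same results. They are therefore no check on them. Domains above the median score changed 1 of 36, giving 0 genes lower at 30 than at 12 cycles in N18 KO in place of 2. SICER islands in place of domains changed 19 of 36. Genes inside became 7 at 30 and 9 at 12 cycles for LAP2alpha, 0 at each for lamin B1 and for 3A6 KO, 1 at 30 and 6 at 12 cycles for 3A6 WT, and 3 for N18 WT at 30 cycles. In KO against WT at 12 cycles, 4 were lower and 2 higher with N18 and 6 were lower with 3A6, and at 30 cycles 1 was lower and 0 higher with 3A6. Between sonications, islands gave 3 genes higher in N18 KO, 5 lower in N18 WT, 5 lower in 3A6 WT and 0 higher for lamin B1. The Ror2 difference with 3A6 at 12 cycles was -43.7 points in islands, under the 50 points required, and -100 in domains. The cause of these changes was not tested. The other 17 kept their count or side, but the genes counted could differ. In N18 KO the 2 genes lower at 30 cycles were Wnt3 and Wnt9b in domains and Wnt10b and Fzd8 in islands. Among genes higher in KO with N18 at 30 cycles, only Wnt3a and Wnt7b were on both lists. Sequencing depth bounds what could be called and was not measured here, since reads in islands are counted after calling. Reads in islands differed between genotypes with N18 at 30 cycles (13601739 in KO and 9600190 in WT). They also differed with 3A6 at 12 cycles (3989494 in KO and 4884992 in WT).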
